A study of Mus musculus with 7 samples.

Results

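The genes described here are the keratins, the proteins of the intermediate filaments of epithelial cells. They were taken as every protein-coding gene of the count table whose symbol is Krt followed by digits alone, and this gave 49 of 43346 genes. Krt6a, Krt6b, Krt33a and Krt33b carry a letter and are not members; their values are given where a member is set beside them. RNA was sequenced from 7 whole colon tumors of mice, and the study compared 2 kinds of bone marrow graft.

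All recipients were wild-type mice of a congenic strain, marked by CD45.1, that were lethally irradiated and transplanted. Colitis-associated cancer was induced with a single injection of the mutagen AOM (10 mg/kg) and 3 cycles of the irritant DSS (3% in drinking water). For 4 of the tumors the graft was heterozygous for loss of the DNA methyltransferase gene Dnmt3a, Dnmt3a(+/-) in the labels and Dnmt3a+/Δ here. For the other 3 it was Dnmt3a(+/+), called Dnmt3a+/+ here. Donors of both genotypes were on a C57BL6/J background, and both received poly(I:C). They are described as carriers of Mx1-Cre, an interferon-inducible deleter that is not specific to blood cells. The genotype therefore belongs to the grafted blood cells, and the tumor epithelium in which keratins are made was wild type in all 7 tumors. The labels put 8 weeks beside the recipients, and the study's methods give a younger age. Replicates 1 and 2 of each graft carry BMT18 in their sample names, and Dnmt3a+/+ replicate 3 with Dnmt3a+/Δ replicates 3 and 4 carry BMT8. The study uses BMT for bone marrow transplantation. The number is read here as a transplantation experiment, which the labels do not state.

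Keratin filaments are built from pairs of a type I and a type II protein, and which pair a cell makes depends on the kind of epithelium. The single-layered epithelium of the colon makes the simple keratins, chiefly Krt8 with Krt18, Krt19 and, in mature surface cells, Krt20. Stratified squamous epithelium, as in skin and the anal canal, makes Krt5 and Krt14 in its basal layer, and above it Krt4 and Krt13 where it is a moist mucosa or Krt1 and Krt10 where it is skin. Hair follicles and nails have further keratins of their own.

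The 49 members were 26 type I and 23 type II genes. Of the type I genes, 25 lay on chromosome 11 between positions 99232761 and 100269871 of GRCm38, and Krt18 lay on chromosome 15 at 102028180 to 102032027. The 23 type II genes lay on chromosome 15 between 101347444 and 102004482, with Krt8 at the end next to Krt18. Neighbouring genes belonged to the same class in places: Krt25, Krt26, Krt27 and Krt28 of the hair root sheath lay together within 59.4 kb.

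Sequence upstream of the start was read for 4 keratins that stand for different epithelia and, as the values below show, for different patterns over the tumors: Krt20 of the colon surface, Krt5 of the basal squamous layer, Krt10 of the skin-type layer and Krt25 of the hair root sheath. Each run is the 250 bases before the RefSeq start on the gene's own strand (GRCm38.p6, minus strand for all 4), with TATAAA, the core of the TATA box, in capitals. They lie at chr11:99438154-99438403 for Krt20, chr15:101712906-101713155 for Krt5, chr11:99389365-99389614 for Krt10 and chr11:99322952-99323201 for Krt25.
Krt20: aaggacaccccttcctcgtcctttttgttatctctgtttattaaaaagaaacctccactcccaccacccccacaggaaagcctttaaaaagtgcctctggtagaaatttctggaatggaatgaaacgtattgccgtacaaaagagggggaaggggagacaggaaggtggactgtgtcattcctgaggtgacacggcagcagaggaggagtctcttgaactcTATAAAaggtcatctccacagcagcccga
Krt5: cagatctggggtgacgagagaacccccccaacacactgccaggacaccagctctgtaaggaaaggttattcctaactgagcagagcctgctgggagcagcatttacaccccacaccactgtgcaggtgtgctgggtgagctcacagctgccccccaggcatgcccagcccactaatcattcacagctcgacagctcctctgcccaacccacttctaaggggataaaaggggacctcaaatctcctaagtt
Krt10: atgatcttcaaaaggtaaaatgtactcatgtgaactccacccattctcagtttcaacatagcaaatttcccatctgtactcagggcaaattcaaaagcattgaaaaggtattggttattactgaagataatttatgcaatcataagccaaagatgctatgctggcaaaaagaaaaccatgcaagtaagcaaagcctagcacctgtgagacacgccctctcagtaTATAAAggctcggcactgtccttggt
Krt25: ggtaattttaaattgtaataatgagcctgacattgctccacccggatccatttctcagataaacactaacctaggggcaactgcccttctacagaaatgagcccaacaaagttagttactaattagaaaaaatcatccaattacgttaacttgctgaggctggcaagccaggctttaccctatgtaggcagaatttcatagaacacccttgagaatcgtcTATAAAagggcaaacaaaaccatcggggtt
The TATAAA of Krt20, Krt10 and Krt25 began 29, 26 and 30 bases before the start. The Krt5 window held no TATAAA on either strand. Over the RefSeq table, 35 keratin genes were matched with 36 windows, and TATAAA was present on either strand in 16 of these windows (44.4%) and in 12.4% of all 32851 windows of the same length. None of the 4 printed windows held GGGCGG (the GC box), GCCNNNGGC (AP-2) or TGANTCA (AP-1) on either strand, and these motifs were present in 32.7%, 13.7% and 6.75% of all windows. The motifs searched do not overlap one another in these runs, and a match describes letters only.

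Each tumor had between 38472738 and 64314999 counts. Dnmt3a itself stood at 20.2 to 24.3 CPM (a gene's counts scaled to a common library size of 1e6, with TMM normalization) in the Dnmt3a+/+ tumors and at 22.0 to 43.0 CPM in the Dnmt3a+/Δ tumors, which is no check of the labels, since the deletion is in blood cells and removes part of the gene. The 18 markers of colon columnar epithelium were all above 3 counts in every tumor. On the first principal component of the 500 most variable genes, with 57.7% of their variance, Dnmt3a+/Δ replicate 2 stood apart at 71.9 from the others, which ranged from -53.6 to 22.6. Values without it are given where it moved a result. All 49 members had counts in at least 1 tumor, 41 reached 1 CPM in at least 1 tumor, and 29 passed the filter on low counts and were tested.

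Simple keratins were high in all 7 tumors. Krt8 (ENSMUSG00000049382), the type II partner of the simple filaments, stood at 6924, 9307 and 14679 CPM in Dnmt3a+/+ replicates 1 to 3 and at 5122, 3321, 6482 and 9110 CPM in Dnmt3a+/Δ replicates 1 to 4. Krt19 (ENSMUSG00000020911), a type I keratin of gland and crypt epithelium, followed it with 3383, 4448 and 8739 CPM against 3035, 1656, 3419 and 5275 CPM. For both genes Dnmt3a+/+ replicate 3 was highest and Dnmt3a+/Δ replicate 2 lowest, and the groups overlapped.

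Krt20 (ENSMUSG00000035775), the keratin of mature surface cells, varied least over the tumors, with 981, 744 and 1103 CPM in the Dnmt3a+/+ group and 717, 457, 836 and 504 CPM in the Dnmt3a+/Δ group. Krt18 (ENSMUSG00000023043), the classic type I partner of Krt8, stood at 385, 667 and 1400 CPM against 485, 633, 788 and 1077 CPM. Unlike Krt8 it was lowest in Dnmt3a+/+ replicate 1, and Dnmt3a+/Δ replicate 2 lay in the middle of its range. In bulk tissue, fewer cells of a type and less RNA per cell cannot be told apart, here and for all results below.

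The fitted values of the 4 simple keratins were below 0, that is toward lower levels in the Dnmt3a+/Δ tumors, and none of these differences passed the test. The log2 fold changes, Dnmt3a+/Δ over Dnmt3a+/+, were -0.78 (SE 0.41) for Krt8, -0.72 (SE 0.46) for Krt19, -0.58 (SE 0.27) for Krt20 and -0.13 (SE 0.45) for Krt18, with edgeR adjusted p of 0.523, 0.590, 0.473 and 0.945. The sign for Krt18 was not stable: its log2 fold change was 0.10 with scaling by total counts, 0.50 once Dnmt3a+/+ replicate 3 was left out and 0.05 once Dnmt3a+/Δ replicate 1 was. The median of the 4 was -0.65, beside 0.00252 over the 15810 genes tested, and without Dnmt3a+/Δ replicate 2 it was -0.45. With scaling by total counts the median of all genes was 0.21 and that of the simple keratins -0.44. The markers of columnar epithelium other than keratins moved with them. Their summed level was 11345 to 16059 CPM in the Dnmt3a+/+ tumors and 6391 to 10537 CPM in the Dnmt3a+/Δ tumors. On the fitted scale 17 of 18 were lower, beside 7874 of the 15810 genes tested. At an unadjusted edgeR p under 0.05, 8 were lower and 1 higher, beside 11% of all genes tested. None of the 15810 genes passed the test, these markers included. The part of epithelial content in the simple keratin values was not tested.

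The other simple keratins went different ways. Krt7, a keratin of ducts and glands, stood at 1259, 544 and 1635 CPM against 1169, 619, 905 and 1338 CPM and had a log2 fold change of -0.19 (SE 0.41, edgeR adjusted p 0.909). Krt23, a type I keratin of simple epithelia, stood at 108, 63.3 and 68.6 CPM against 100, 184, 112 and 105 CPM (log2 fold change 0.65, SE 0.29, edgeR adjusted p 0.466). It had the only fitted value above 0 among the simple keratins, although Krt7 and Krt18 were also above 0 with scaling by total counts. The highest Krt23 value was in Dnmt3a+/Δ replicate 2, the tumor with the least Krt8, Krt19 and Krt20, and its groups overlapped.

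**Figure D1:**
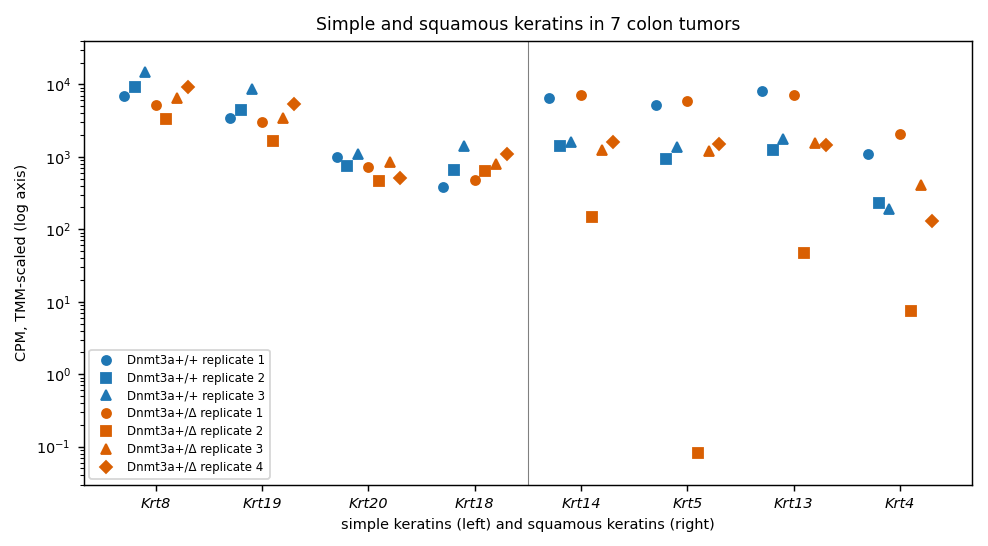
CPM of 4 simple and 4 squamous keratins in each tumor, on a log axis, with Dnmt3a+/+ tumors in blue and Dnmt3a+/Δ tumors in orange. The simple keratins lie within 5.28-fold for each gene, while the squamous keratins are highest in replicate 1 of both groups and lowest in Dnmt3a+/Δ replicate 2, where Krt5 is at 0.0815 CPM.

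Squamous keratins had their lowest levels in Dnmt3a+/Δ replicate 2, where Krt5 was nearly missing. Krt5 (ENSMUSG00000061527), the type II keratin of the basal layer, stood at 5158, 927 and 1368 CPM in the Dnmt3a+/+ tumors and at 5963, 0.0815, 1218 and 1487 CPM in the Dnmt3a+/Δ tumors. Krt14 (ENSMUSG00000045545), its type I partner, had 6561, 1410 and 1608 CPM against 7171, 149, 1247 and 1611 CPM. Replicate 1 of each group was several times above the rest for both genes, and Dnmt3a+/Δ replicate 2 was far below.

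The mucosal pair of the layers above followed the same order at both ends. Krt13 (ENSMUSG00000044041) stood at 8153, 1251 and 1736 CPM against 7206, 46.7, 1576 and 1473 CPM. Krt4 (ENSMUSG00000059668) stood at 1088, 228 and 190 CPM against 2033, 7.38, 415 and 131 CPM. For each of Krt5, Krt14, Krt13 and Krt4 the highest and next highest tumors were the 2 replicates 1, which belong to different grafts and to the same experiment, and the lowest was Dnmt3a+/Δ replicate 2, also of that experiment. Krt15, a further basal keratin, had the same 2 tumors on top and the same tumor lowest, over a narrower range of 42.9 to 405 CPM.

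Between the grafts the squamous keratins overlapped, and none passed the test. The log2 fold changes were -0.33 (SE 1.10) for Krt14, -0.20 (SE 1.81) for Krt5, -0.53 (SE 1.27) for Krt13 and 0.36 (SE 1.43) for Krt4, with edgeR adjusted p of 0.944, 0.983, 0.919 and 0.953. Each standard error was larger than the fold change itself, which restates the test, since the SE was computed from the fold change and the test's F. The median of the 4 was -0.26, and single tumors decided its sign: it was 0.85 without Dnmt3a+/+ replicate 1, -1.57 without Dnmt3a+/Δ replicate 1 and 0.15 without Dnmt3a+/Δ replicate 2.

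Levels can be compared between genes once divided by transcript length. Summed over Krt8, Krt18, Krt19 and Krt20, the level was 6460, 8426 and 14589 CPM per kb of transcript in Dnmt3a+/+ replicates 1 to 3 and 5252, 3425, 6462 and 9011 CPM per kb in Dnmt3a+/Δ replicates 1 to 4. Summed over Krt5, Krt14, Krt13 and Krt4 it was 11652, 2116 and 2709 CPM per kb against 12247, 119, 2436 and 2578 CPM per kb. The simple sum spanned 4.26-fold from the lowest to the highest tumor and the squamous sum 103-fold. Without Dnmt3a+/Δ replicate 2 these spans were 2.78-fold and 5.79-fold. The squamous sum exceeded the simple sum in replicate 1 of each group, and in the other 5 tumors the simple sum was larger.

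**Figure D2:**
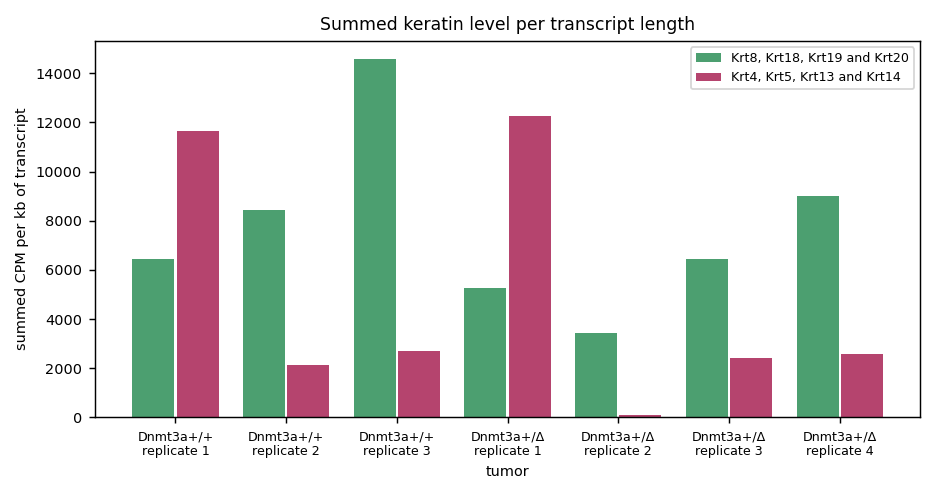
Summed CPM per kb of transcript of 4 simple keratins (green bars) and 4 squamous keratins (purple bars) in each tumor. The purple bar is the taller in Dnmt3a+/+ replicate 1 and Dnmt3a+/Δ replicate 1 and almost absent in Dnmt3a+/Δ replicate 2, at 119 CPM per kb.

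As a share of the 2 sums together, squamous keratins made up 64.3%, 20.1% and 15.7% in the Dnmt3a+/+ tumors and 69.99%, 3.37%, 27.4% and 22.2% in the Dnmt3a+/Δ tumors. Within experiment BMT18 the values were thus 64.3% and 20.1% against 69.99% and 3.37%, and within BMT8 15.7% against 27.4% and 22.2%. Both the largest and the smallest share came from BMT18 and from the Dnmt3a+/Δ group. With all basal, mucosal and skin-type keratins counted as squamous, the shares were 16.5% to 65.2% and 4.10% to 72.2% in the 2 groups.

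Keratins of cornified, skin-type layers were a smaller and more uneven part. Krt10, the type I keratin of these layers, stood at 430, 263 and 62.0 CPM against 1644, 2.30, 92.8 and 38.7 CPM. Krt1, its type II partner, stood at 80.8, 114 and 4.92 CPM against 788, 0.0204, 17.9 and 3.87 CPM. Dnmt3a+/Δ replicate 1 alone held more Krt1 and Krt10 than any other tumor, and the single count of Krt1 in Dnmt3a+/Δ replicate 2 is under the floor of 3 counts.

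Krt77, a keratin of sweat gland ducts, and Krt2, of the uppermost living skin layers, were nearly limited to the same tumor, at 12.9 CPM and 1.65 CPM in Dnmt3a+/Δ replicate 1. In the other tumors Krt77 did not exceed 0.215 CPM and Krt2 had no counts, so that Krt2 was at or under the floor of 3 counts in 6 libraries. Krt79, Krt78 and Krt80 ranged up to 91.5, 32.9 and 46.5 CPM, each highest in Dnmt3a+/Δ replicate 1. Of this class 5 genes were tested, none passed, and their fold changes on the log2 scale ran from -0.0089 for Krt80 to 1.60 (SE 2.24) for Krt1, with a median of 0.82, or 1.24 without Dnmt3a+/Δ replicate 2. Dnmt3a+/Δ replicate 1 set the direction of the skin-type pair: leaving it out gave -2.49 for Krt10 and -3.18 for Krt1.

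Krt17, which rises at wound edges, stood at 98.1, 37.2 and 132 CPM against 142, 41.8, 26.2 and 39.7 CPM. Krt16 stood at 57.8, 19.5 and 17.5 CPM against 78.2, 1.85, 10.8 and 8.89 CPM. In the tumor that had almost no Krt5, Krt17 lay within the range of the others and Krt16 was at its lowest. Krt6a and Krt6b, their type II partners and no members, were abundant where Krt5 was. Krt6a stood at 5084 and 5096 CPM in replicate 1 of the 2 groups and at 49.5 CPM in Dnmt3a+/Δ replicate 2. Krt6b stood at 1787 and 1873 CPM in replicate 1 of the 2 groups and at only 0.713 CPM in Dnmt3a+/Δ replicate 2. Krt16 is uncertain, since 24.3% of the 100-base stretches of its transcript, the read length of the study, also occur in another gene. For Krt6a and Krt6b these shares were 34.0% and 30.6%, and Krt6a shares some of its stretches with Krt5.

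Keratins of the inner root sheath, the tube that guides the growing hair, were found almost entirely in the 2 replicates 1. Krt71 stood at 20.5 CPM in Dnmt3a+/+ replicate 1 and 33.5 CPM in Dnmt3a+/Δ replicate 1 and had no counts in the other 5 tumors. Krt25 stood at 9.99 and 16.7 CPM in the same tumors, with a single count in Dnmt3a+/+ replicate 2 and none elsewhere. A count of 0 allows up to 3 counts, or 0.0468 to 0.0918 CPM in these libraries, so Krt71 was at least 365-fold higher in Dnmt3a+/Δ replicate 1 than in any of the 5 tumors without counts, with the floor taken per library.

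Krt27, Krt73, Krt72, Krt28 and Krt26 showed the same pattern, with maxima of 14.1, 5.49, 5.12, 3.82 and 1.85 CPM, all in Dnmt3a+/Δ replicate 1. The 8 genes of this class summed to 46.2 CPM in Dnmt3a+/+ replicate 1, 84.2 CPM in Dnmt3a+/Δ replicate 1 and at most 1.41 CPM in any other tumor. All 8 were above 3 counts in both replicates 1, and none was in Dnmt3a+/Δ replicate 2. Only Krt27 and Krt75 of this class were tested. Krt75, of the companion layer beside the sheath, was also present at 1.28 and 1.13 CPM in Dnmt3a+/+ replicates 2 and 3. In Dnmt3a+/Δ replicates 3 and 4 it stood at 0.366 and 0.514 CPM. Krt27 stood at 0.109, 0.214, 0.244 and 0.243 CPM in the same tumors, in this order.

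Keratins of hair and nail split into 2 kinds. Krt36 and Krt84, a type I and a type II hard keratin also known from the tongue, were present in all tumors. Krt36 stood at 76.1, 164 and 624 CPM against 82.2, 133, 125 and 650 CPM, and Krt84 at 45.1, 77.9 and 193 CPM against 46.8, 3.63, 45.6 and 174 CPM. Both were high in Dnmt3a+/+ replicate 3 and Dnmt3a+/Δ replicate 4, tumors of experiment BMT8. Neither was high in Dnmt3a+/Δ replicate 3, also of BMT8, or in the 2 replicates 1. Their log2 fold changes were -0.22 (SE 0.90) and -0.64 (SE 1.01), with edgeR adjusted p of 0.956 and 0.860.

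Several of the remaining hair and nail keratins had the pattern of the root sheath. Krt31, Krt81, Krt86 and Krt34 reached 8.31, 8.534, 6.34 and 5.19 CPM in Dnmt3a+/Δ replicate 1 and 2.15, 1.83, 0.591 and 0.403 CPM in Dnmt3a+/+ replicate 1. None of these 4 exceeded 0.102 CPM in another tumor. Reads of these genes are hard to assign, because 29.0% of the 100-base stretches of Krt81, 24.6% of Krt86, 17.5% of Krt34 and 14.0% of Krt31 occur in other keratins. Krt35, of the hair cortex, differed from them by standing highest in Dnmt3a+/Δ replicates 3 and 4, at 7.17 and 9.14 CPM, with a log2 fold change of 1.25 (SE 0.84, edgeR adjusted p 0.609).

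Of the members not yet given, Krt12 of the cornea ranged from 0.224 to 17.9 CPM with its maximum in Dnmt3a+/+ replicate 1, and Krt90, with no assigned class here, from 3.42 to 19.8 CPM. Krt87, Krt83, Krt32 and Krt82 had maxima of 9.58, 9.28, 2.05 and 1.07 CPM, all in Dnmt3a+/Δ replicate 1. The 8 members that stayed under 1 CPM in all tumors were Krt9, Krt24, Krt39, Krt40, Krt42, Krt76, Krt88 and Krt222.

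**Figure D3:**
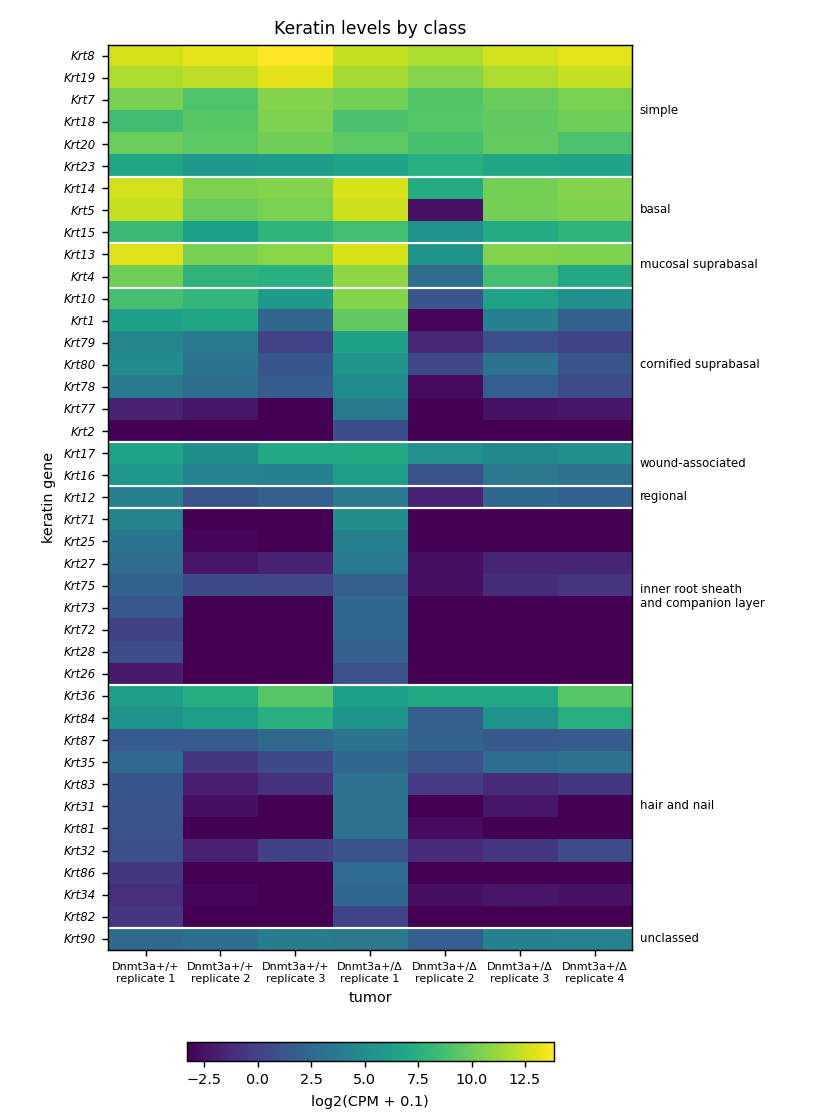
Level of the 41 keratins that reach 1 CPM, as log2(CPM + 0.1), with tumors in columns and genes in rows grouped by class. The root sheath rows are brightest in Dnmt3a+/+ replicate 1 and Dnmt3a+/Δ replicate 1, though Krt26 is at only 0.134 CPM in the former. Krt75 is also present in Dnmt3a+/+ replicates 2 and 3 and, at lower levels, in Dnmt3a+/Δ replicates 3 and 4. The simple rows are bright in all columns, and Dnmt3a+/Δ replicate 2 is darkest from the basal rows to the cornified rows.

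Squamous keratins varied more between tumors than most genes did. The SD of log2 CPM over the 7 tumors was 5.38 for Krt5, the second largest of the 15810 genes tested, and 4.38 for Krt1, which ranked 7. Of the 29 members tested, 15 were in the top 5% of all genes by this SD, and the median SD was 1.79 for the members and 0.42 for all genes tested. Without Dnmt3a+/Δ replicate 2 the SD was 1.15 for Krt5, which then ranked 1230, and 2.94 for Krt1, which ranked 65; 11 members were in the top 5%, and the medians were 1.17 and 0.38. Over all 7 tumors the 6 simple keratins ranged from 0.47 for Krt20 to 0.74 for Krt19. Of all 49 members, 32 were highest in Dnmt3a+/Δ replicate 1. Of the 29 tested, 15 were highest in that tumor and 20 were lowest in Dnmt3a+/Δ replicate 2. Shares over all genes are not given for these counts.

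Across the whole list, 0 of the 29 members tested were called between the grafts at edgeR's adjusted p under 0.05 with an absolute log2 fold change over 1. The background was 0% of 15810 genes by the same rule. At an unadjusted p under 0.05 there were 0 members, beside 11% of all genes tested. DESeq2 also called 0 members, beside 1.87% of 16056 genes, and gave an unadjusted p under 0.05 to 1 member, Krt23 (p 0.0440), beside 8.99% of 24067 genes. The groups did not overlap in CPM for 0 members, beside 12.4% of the genes tested. Of the 29, 12 were higher and 17 lower in the Dnmt3a+/Δ tumors, and the median difference was -0.13 on the log2 scale, or 0.10 with scaling by total counts. Leaving out Dnmt3a+/Δ replicate 2 turned the balance to 20 higher and 9 lower.

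**Figure D4:**
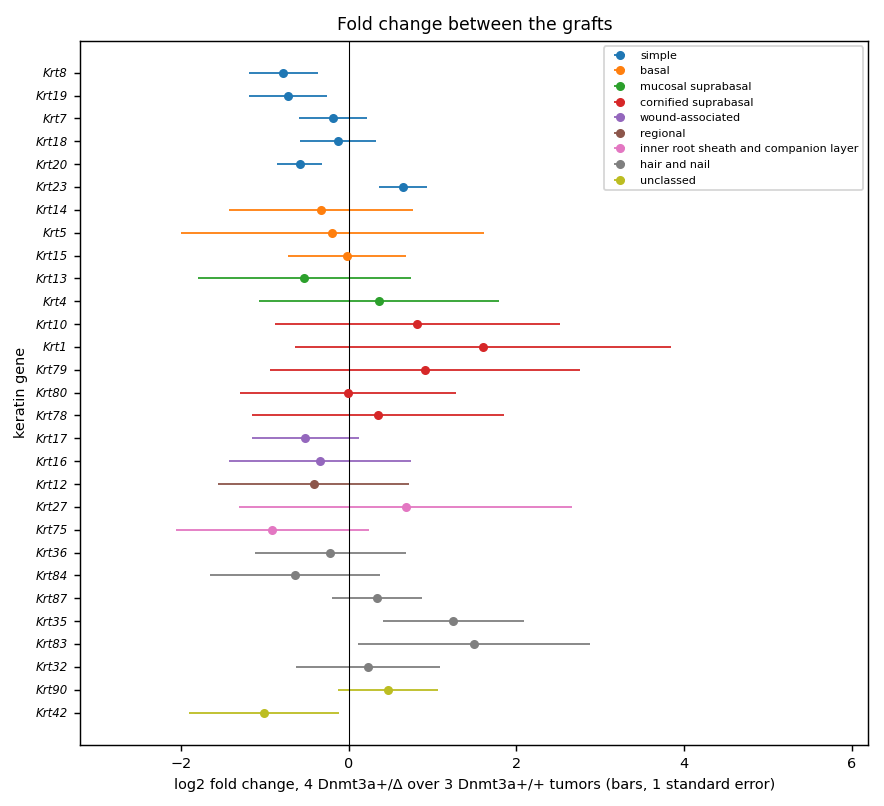
Log2 fold change of the 29 tested keratins, 4 Dnmt3a+/Δ over 3 Dnmt3a+/+ tumors, with bars of 1 standard error, coloured by class. The simple keratins have short bars, from 0.27 for Krt20 to 0.46 for Krt19, and the basal, mucosal and cornified keratins have long ones, up to 2.24 for Krt1.

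The exact permutation test over the 35 splits of the tumors (two-sided, on log2 CPM) can give no p under 0.0286. It gave 0.114 for Krt8, Krt20 and Krt23, 0.286 for Krt19 and 1 for Krt18, and 0.486, 0.8286, 0.571 and 0.771 for Krt14, Krt5, Krt13 and Krt4. With the transplantation experiment as a covariate Krt8, Krt19 and Krt20 were lower and Krt23 higher at unadjusted edgeR p of 0.0121, 0.0267, 0.0487 and 0.0378, where the lowest adjusted p of a member was 0.266. These 4 of 29 members stand beside 14.7% of all genes tested in that fit. Within BMT18 alone, 2 tumors in each group, the log2 fold changes were -0.93 for Krt8, -0.73 for Krt19, 0.10 for Krt18 and -0.04 for Krt5.

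Type I and type II partners were followed per length. The ratio of Krt19 to Krt8 was steady, from 0.594 to 0.740 over the 7 tumors. The ratio of Krt18 to Krt8 ran from 0.0758 to 0.260 and was highest in Dnmt3a+/Δ replicate 2. Summed over Krt18, Krt19 and Krt20, type I level was 0.773 to 1.02 times the level of Krt8. For Krt8, 16.9% of the 100-base stretches occur in the pseudogene Krt8-ps, so its level is less certain than that of Krt19, which shares none.

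The basal partners kept their ratio in 6 tumors and lost it in 1. Krt14 over Krt5, per kb, was 1.65, 1.97 and 1.52 in the Dnmt3a+/+ tumors and 1.56, 1.32 and 1.40 in Dnmt3a+/Δ replicates 1, 3 and 4. In Dnmt3a+/Δ replicate 2 it was 2365, with a 95% exact interval of 923 to 8683 that covers counting error only, from 7312 counts of Krt14 and 4 of Krt5. Krt13 had 2290 counts, Krt6a 2432 (with the shared stretches given above) and Krt15 42.9 CPM in this tumor, while Krt6b had 35 counts. Stretches shared with other genes made up 2.88% of the Krt14 transcript and 2.38% of the Krt5 transcript, and the part of such reads was not tested.

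Krt4 and Krt13 paired more loosely. Krt13 over Krt4 ran from 4.57 in Dnmt3a+/Δ replicate 1 to 14.5 in Dnmt3a+/Δ replicate 4, with 8.16 in Dnmt3a+/Δ replicate 2. Krt10 over Krt1 ran from 2.45 to 14.8 in the 6 tumors with counts above the floor. Krt25 over Krt71 was 0.535 and 0.547 in the 2 tumors that held them. Krt36 over Krt84 also left its range in Dnmt3a+/Δ replicate 2, at 56.4. In the other tumors it ran from 2.60 in Dnmt3a+/+ replicate 1 to 5.75 in Dnmt3a+/Δ replicate 4.

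Markers of other tissue moved with these levels. Of 25 squamous genes other than keratins, 20 to 24 were above 3 counts in 6 tumors and 15 in Dnmt3a+/Δ replicate 2. Their summed level was 6547, 2915 and 3008 CPM against 7313, 613, 1828 and 1977 CPM, in which the 2 replicates 1 were highest and Dnmt3a+/Δ replicate 2 lowest, as for Krt5. Trp63, the transcription factor that defines the basal squamous layer, stood at 144, 32.9 and 32.7 CPM against 196, 0.0204, 43.6 and 45.7 CPM, with 1 count in Dnmt3a+/Δ replicate 2. Calml3, a calmodulin-like gene of squamous cells, had no counts in that tumor and 91.9 to 634 CPM in the others. Sfn and Perp, which columnar cells also make, kept 191 and 149 CPM there.

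**Figure D5:**
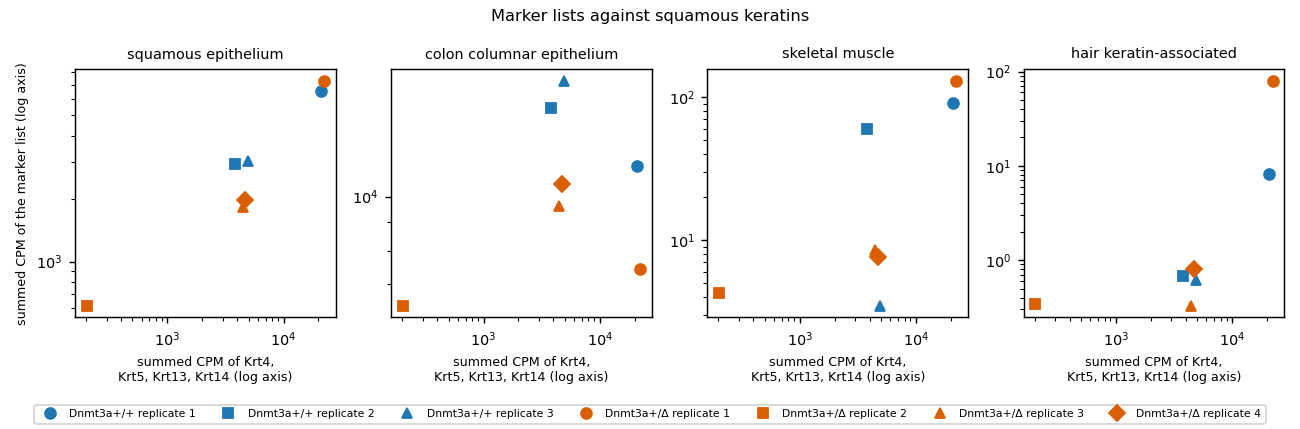
Summed CPM of 4 marker lists against the summed CPM of Krt4, Krt5, Krt13 and Krt14 in each tumor, both on log axes, with Dnmt3a+/+ in blue and Dnmt3a+/Δ in orange. The squamous list is highest and lowest in the same tumors as the keratins, and muscle and hair keratin-associated genes are highest in the 2 tumors at the right, at 91.5 and 130 CPM and at 8.22 and 80.1 CPM.

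Genes of hair and of skeletal muscle were seen in the tumors with root sheath keratins. The 57 genes of hair keratin-associated proteins summed to 8.22, 0.671 and 0.612 CPM against 80.1, 0.346, 0.325 and 0.811 CPM, and 23 and 49 of them were above 3 counts in the 2 replicates 1, against 1 or 2 in the others. The 8 other hair follicle genes summed to 86.8, 24.1 and 32.9 CPM against 105, 7.17, 30.6 and 26.2 CPM. Foxn1, a regulator of hair keratins, did not follow them and was highest in Dnmt3a+/+ replicate 3, at 12.4 CPM. The 8 skeletal muscle genes summed to 91.5, 60.2 and 3.46 CPM in the Dnmt3a+/+ tumors, to 130 CPM in Dnmt3a+/Δ replicate 1 and to under 10 CPM in the other 3, so that Dnmt3a+/+ replicate 2 was also high. Acta1, skeletal actin, was 20.02, 19.6 and 1.84 CPM against 26.1, 3.12, 1.97 and 1.30 CPM.

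Melanocyte and urothelial genes stayed low in all tumors. Melanocyte genes summed to 1.35 to 2.09 CPM over the tumors, with Mlana at 0 in all. Urothelial genes summed to 8.57 to 10.95 CPM in the Dnmt3a+/+ tumors and 5.12 to 6.27 CPM in the Dnmt3a+/Δ tumors. The single genes did not share this direction: on the fitted scale 3 of the 4 tested were higher in the Dnmt3a+/Δ tumors, with a median log2 fold change of 0.38. At an unadjusted edgeR p under 0.05, 1 was higher and 1 lower, beside 11% of all genes tested. Upk2 did not exceed 0.724 CPM in any tumor. Stroma and leukocyte genes were highest in the tumor with the fewest keratin counts, at 991 CPM in Dnmt3a+/Δ replicate 2 against 156 to 369 CPM in the other 6. A mixed list of filament genes summed to 3483 to 4790 CPM and to 1835 to 6441 CPM in the 2 groups. Its sum was lowest in Dnmt3a+/Δ replicate 2 and highest in Dnmt3a+/Δ replicate 1. The list held Dsp, Jup and Plec of desmosomes and hemidesmosomes, and also genes of other intermediate filaments, which do not anchor keratins. What part anal or skin tissue, or the place of a tumor in the colon, had in the keratin levels was not tested, and the labels give no position of the tumors.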

How the data were processed

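Whole colon tumors, 3 with a Dnmt3a+/+ and 4 with a Dnmt3a+/Δ graft, were sequenced as poly(A) RNA. The authors trimmed reads with Trimmomatic, aligned them to mm10 with STAR 2.7.3a and deposited expected counts per gene from RSEM v1.2.31 as whole numbers. The annotation release is not given in the sources used here, and gene types, lengths and positions were taken from GENCODE M21 (GRCm38); 42462 of 43346 gene IDs had a symbol. Library sizes were TMM-scaled, and filterByExpr kept 15810 genes. The grafts were compared without covariates by edgeR 4.0.16's quasi-likelihood test in R 4.3.3 with Benjamini-Hochberg adjustment over all genes; DESeq2 1.42.0 was an alternative. The SE of an edgeR fold change is its absolute log2 value divided by the square root of the test's F. It is therefore no error estimate separate from the p-value. Log2 CPM used a prior count of 2, and length was that of the principal transcript, since RSEM's effective lengths were not used here. Labels name replicates and no mice, but each column header carries its own number. The study also gives as many mice, 3 and 4, as tumors, with the grafts exchanged in that passage. The p-values therefore measure spread between tumors of separate mice. On simulated counts for the 15810 genes in 4 against 3 tumors, edgeR recovered 48 of 100 changes of 4-fold and 70 of 100 of 8-fold, with 5 false calls. DESeq2 recovered 74 and 85, with 69 false calls. The changed genes were drawn from all genes tested, with a median SD of log2 CPM of 0.42. The recovery for keratins, with a median of 1.79, was not tested. Named were the 8 keratins set against each other, members reaching 1 CPM, and in each marker list the 4 most abundant genes with the defining markers; Dnmt3a, Krt8-ps and members under 1 CPM were named besides. Members and lists were chosen with earlier results of these data known. Intervals cover counting error only.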

Additional observations from a re-analysis of the deposited data

Results flagged for a closer look

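Among 28 keratins examined for a tumor far from the others of the Dnmt3a+/Δ group, 1 value stood out: Krt5 in Dnmt3a+/Δ replicate 2, at -2.98 log2 CPM from 4 counts, where the gap to the nearest tumor was 0.852 of the group's range. Chance alone flags about 1 in 20 groups, or 1.4 of 28. The Dnmt3a+/+ group of 3 tumors was too small for this check. Whether a keratin's graft effect differed between the 2 experiments could not be decided by edgeR's interaction test. In that fit BMT8 held a single Dnmt3a+/+ tumor.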

How the results depend on the processing

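The count of 0 keratins called was the same under all alternatives run. The count at an unadjusted p under 0.05, 0 in the reported fit, was 1 with DESeq2 size factors in edgeR, 1 with total counts only, 1 with DESeq2, 4 with the experiment as covariate, 3 with the replicate block, 3 with replicate 1 of both groups left out together (chosen after seeing the data), and 0 to 5 with each tumor left out in turn, the 5 arising without Dnmt3a+/Δ replicate 1. Beside these, the share of all genes tested at such a p was 11% in the reported fit, 10.9%, 12.5%, 8.99%, 14.7%, 11.8% and 8.85% under these 6 alternatives in the same order, and 13.7% without Dnmt3a+/Δ replicate 1, where the members' share was 18.5%. The replicate block put Krt8, Krt19 and Krt20 lower and moved the median of the squamous keratins to -1.24; same-numbered tumors had deviation correlations of 0.568, 0.0711 and -0.0377, so the numbers were not taken to pair the tumors. Leaving out single tumors moved the median of the simple keratins between -0.79 and -0.34 and that of the squamous keratins between -1.57 and 0.85. Signs of single fold changes turned for 10 of 27 keratins without Dnmt3a+/Δ replicate 1 and for 8 of 28 without Dnmt3a+/Δ replicate 2. None of these had an edgeR adjusted p under 0.05. Some turned far on the log2 scale without Dnmt3a+/Δ replicate 1, to -2.49 for Krt10, -3.18 for Krt1 and -3.62 for Krt79. Total-count scaling changed the span of the simple sum over tumors from 4.26-fold to 2.99-fold and of the squamous sum from 103-fold to 85.5-fold; without Dnmt3a+/Δ replicate 2, chosen after seeing the data, the spans were 2.78-fold and 5.79-fold. The causes were not tested. With 3 and 4 tumors, the standard errors of the squamous keratins were 1.10 to 1.81 on the log2 scale.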

Other observations

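The 2 tumors with root sheath keratins, replicate 1 of each graft, differed in the hair proteins beside them. Krt71 and Krt25 were 1.63-fold and 1.67-fold higher in Dnmt3a+/Δ replicate 1 than in Dnmt3a+/+ replicate 1, while keratin-associated proteins of hair were 9.74-fold higher and cornified keratins 4.53-fold higher. Krt5, Krt14 and Krt13 of the same tumors were 1.16-fold, 1.09-fold and 0.884-fold. Each value compares 1 tumor with 1 tumor and has no replicate.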
